A study of Mus musculus with 19 samples.

Results

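The genes described here encode the protein subunits of the mitochondrial ribosome. They were chosen as the protein-coding genes whose symbol in the GENCODE mouse M21 annotation is Mrpl or Mrps followed by a digit, and whose value reached 10 or more in 3 or more of the 19 libraries. Of 78 such genes 77 passed, among 23973 of 49671 genes that passed the same filter. The gene that did not pass was Mrpl53, whose highest value was 2.11. By structure, 50 of the 77 belong to the large subunit, including Mrps18a and Mrps30, which carry small-subunit names but sit in the large subunit. A further 26 belong to the small subunit. Mrps36 was counted with neither, because it is known as a component of the 2-oxoglutarate dehydrogenase complex.

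The mitochondrial ribosome translates the few proteins encoded by mitochondrial DNA, which are core parts of the respiratory chain and of ATP synthase. Its RNA comes from mitochondrial DNA, while its proteins are encoded in the nucleus, made in the cytosol and imported, so that many nuclear genes must be expressed together to build it. The small subunit binds the mRNA and decodes it, and the large subunit joins amino acids and passes the new protein into the inner membrane.

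RNA-seq was made from brain homogenate enriched for microglia, the resident macrophages of the brain. HEM mice overexpressed human wild-type alpha-synuclein from a transgene on the X chromosome under the murine Thy-1 promoter, which is known for its activity in neurons, and WT mice were the controls. Both were on the B6D2F1/J background. At 13 months of age 8 HEM mice and 4 WT mice were taken, and at 3 months 4 HEM mice and 3 WT mice, with no other treatment in the labels and 1 library per animal. Libraries held 63.3 to 95.8 M reads in HEM and 93.2 to 124.5 M in WT at 13 months, and 74.7 to 112.9 M in HEM and 83.0 to 106.8 M in WT at 3 months. Values below are normalised counts, the authors' gene counts divided by 1 size factor per library. The IDs are those of mouse genes, and the human transgene was not analysed here. The 8 microglial markers were above 0 in each library, and so were markers of neurons, astrocytes, oligodendrocytes, endothelium, choroid plexus, neutrophils and erythroid cells, so the material is a mixture. In such material fewer cells of a type and less RNA per cell cannot be told apart.

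The members lie on 17 chromosomes, with 11 on chromosome 11. Their starts often lie close to the start of a gene on the other strand. For 33 of 77 members (42.9%) another protein-coding gene on the opposite strand started within 1000 bases, against 2275 of 17004 tested protein-coding genes (13.4%). For 18 members that start lay upstream, and for 15 it lay on the transcribed side, so that the pair can overlap. Among the tested protein-coding genes these were 1426 and 849. Mrps12 is of the first kind, 172 bases from Sars2, the mitochondrial seryl-tRNA synthetase. Mrpl46 and Mrps11 are of the second kind and overlap each other, with 412 bases between their starts, and Mrpl43 overlaps Twnk, the mitochondrial DNA helicase, with 779 bases between the starts. The promoters are shown as a description. They set 4 members with some of the clearest differences at 13 months beside Mrpl33, which did not share their direction. Any part of these sequences in the differences was not tested. The windows run from 250 bases before to 50 bases after the RefSeq start (GRCm38.p6), each on its gene's strand, and capitals mark the cores of motifs of 3 factors known at promoters of mitochondrial genes, CCGGAAG (ETS factors), GCATGCG (NRF1) and ATGGCG (YY1), on either strand. They are Mrpl58 at chr11:115403502-115403801 (plus strand), Mrpl42 at chr10:95501900-95502199 (minus), Mrps12 at chr7:28741772-28742071 (minus), Mrps6 at chr16:92058086-92058385 (plus) and Mrpl33 at chr5:31613701-31614000 (plus).
Mrpl58: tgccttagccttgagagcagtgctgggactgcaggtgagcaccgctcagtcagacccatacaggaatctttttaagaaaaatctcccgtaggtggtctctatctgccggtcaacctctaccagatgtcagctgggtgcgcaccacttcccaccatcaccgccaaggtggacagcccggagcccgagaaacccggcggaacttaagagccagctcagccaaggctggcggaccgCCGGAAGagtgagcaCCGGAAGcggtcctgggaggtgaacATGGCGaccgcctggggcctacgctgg
Mrpl42: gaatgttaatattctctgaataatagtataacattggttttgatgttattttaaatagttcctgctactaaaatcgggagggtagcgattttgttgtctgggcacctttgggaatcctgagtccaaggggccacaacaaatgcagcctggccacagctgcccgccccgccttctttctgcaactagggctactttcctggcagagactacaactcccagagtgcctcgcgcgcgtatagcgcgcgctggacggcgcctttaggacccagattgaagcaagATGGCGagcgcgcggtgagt
Mrps12: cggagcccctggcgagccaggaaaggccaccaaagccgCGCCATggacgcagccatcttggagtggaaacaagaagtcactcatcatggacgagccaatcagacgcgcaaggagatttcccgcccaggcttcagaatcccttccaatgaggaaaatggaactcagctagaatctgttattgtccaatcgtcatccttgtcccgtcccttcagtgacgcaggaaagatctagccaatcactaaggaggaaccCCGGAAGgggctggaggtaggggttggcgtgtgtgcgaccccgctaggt
Mrps6: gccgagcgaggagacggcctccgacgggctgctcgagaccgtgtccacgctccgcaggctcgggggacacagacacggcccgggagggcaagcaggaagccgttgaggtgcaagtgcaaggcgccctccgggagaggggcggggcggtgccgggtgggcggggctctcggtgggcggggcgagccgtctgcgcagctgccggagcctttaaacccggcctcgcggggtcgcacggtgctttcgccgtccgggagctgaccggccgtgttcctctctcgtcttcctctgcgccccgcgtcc
Mrpl33: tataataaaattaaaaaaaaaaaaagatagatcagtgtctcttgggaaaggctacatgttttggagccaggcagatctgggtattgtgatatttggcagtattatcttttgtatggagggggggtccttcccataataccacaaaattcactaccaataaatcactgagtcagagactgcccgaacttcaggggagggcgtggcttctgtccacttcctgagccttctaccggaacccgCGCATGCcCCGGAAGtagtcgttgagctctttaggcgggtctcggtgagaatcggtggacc

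In these windows Mrpl58 held 2 ETS cores and 1 YY1 core, and Mrps6 held none of the 3 motifs. Mrpl33 held an NRF1 core 1 base before an ETS core. The promoter table held 68 of the 77 members. The ETS core was in 25 of them (36.8%), against 2683 of the 27025 promoters of all genes (9.93%). Those 27025 include genes that did not pass the filter here, and the share among tested genes alone was not taken. The YY1 core was in 26.5% of the members' promoters and in 10.2% of all, and the NRF1 core in 11.8% and 4.01%. A match of letters is a description of the window and not a binding site. Among members that were lower in HEM at 13 months, 16 of 32 promoters held at least 1 of the 3 motifs, and among the other members 24 of 36 did.

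Of the 77 members, 32 shared exon bases with another annotated gene, 2 of them over more than 50% of these bases. All 77 were well above 0 in each library, with 436 normalised counts, for Mrps18c, as the lowest value. Per kilobase of merged exon length, and averaged over the 19 libraries, their levels ran from 169 normalised counts per kb for Mrps30 to 5190 for Mrps21, a 30.8-fold range. The median was 920 per kb, against 393 for the 17004 tested protein-coding genes. The large subunit had a median of 995 per kb and the small subunit one of 681. The lowest members after Mrps30 were Mrpl33 at 206 and Mrpl47 at 217 per kb, and the highest besides Mrps21 were Mrpl34 at 3712 and Mrpl28 at 3048 per kb. Levels of lowest members rest on long annotated exons, with 6.67 kb for Mrps30 and 7.33 kb for Mrpl33, against 0.739 kb for Mrps21 and 0.607 kb for Mrpl34. Such levels depend on which of these exons the tissue uses.

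At 13 months, mitochondrial ribosomal protein genes were lower in HEM than in WT. Of the 77 members, 37 fell in HEM (48.1%) and 0 rose, where 7.3% of all 23973 tested genes fell and 4.87% rose (limma-trend, adjusted p under 0.05 by Benjamini-Hochberg over all tested genes). Log2 fold changes of HEM over WT were negative for 72 members (93.5%), against 46.2% of all tested genes. The members' median was -0.29, a change of -18.5%, beside a median of 0.03 over all tested genes. Between genotypes, fell and rose here mean lower and higher in HEM than in WT mice of the same age, not a change over time. The lower levels took in both subunits. In the large subunit 25 of 50 fell, with a median of -0.30, and in the small subunit 11 of 26 fell, with a median of -0.28. Among subunits with a bacterial counterpart 19 of 45 fell, and among those specific to mitochondria 17 of 31 did.

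**Figure D1:**
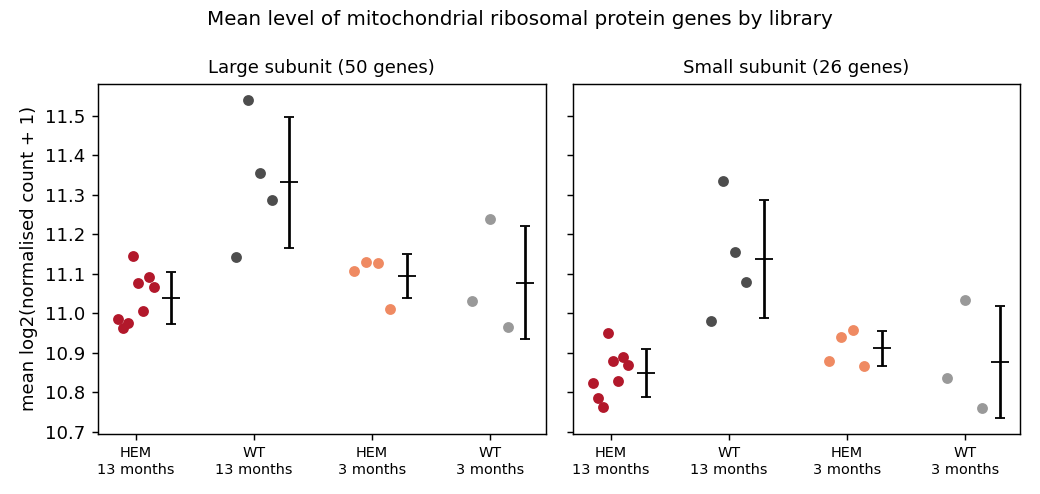
Mean log2(normalised count + 1) over the 50 large-subunit genes (left) and the 26 small-subunit genes (right) in each library (points), with the mean and SD of each group (bars). WT libraries at 13 months reach the highest levels in both panels, and the 8 HEM libraries at 13 months lie close together.

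The mean log2 level over all members averaged 10.96 ± 0.06 in the HEM libraries and 11.26 ± 0.16 in the WT libraries aged 13 months (SD, n = 8 and 4). At 3 months it averaged 11.02 ± 0.05 in the HEM libraries and 10.998 ± 0.14 in the WT libraries (SD, n = 4 and 3). The group with the highest mean was thus WT at 13 months, and HEM at 13 months lay nearer to both groups aged 3 months. At 13 months the HEM libraries ran from 10.89 to 11.07, and the 4 WT libraries stood at 11.08, 11.46, 11.28 and 11.21. Over all members the groups did not overlap, but the lowest WT library was within 0.01 of the highest HEM library. Over the large-subunit genes alone they did overlap, with HEM replicate 7 at 11.146 and WT replicate 6 at 11.144. The distance between the 2 subunits was much the same in the 4 groups. The mean log2 level of the large-subunit genes minus that of the small-subunit genes came to 0.19 ± 0.02 in HEM mice and 0.19 ± 0.02 in WT mice at 13 months, and 0.18 ± 0.04 in HEM and 0.20 ± 0.01 in WT at 3 months. This difference is used only across libraries, since the genes differ in length.

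In the small subunit, which decodes the mRNA, the member with the smallest p was Mrps12, a core protein of the decoding centre. Mrps12 ran from 2149.9 to 2679 normalised counts in the 8 HEM mice, with a median of 2437, against 3084, 4116, 3417 and 3429.7 in the WT mice. All 8 HEM values lay under all 4 WT values. The log2 fold change was -0.52 ± 0.09 (SE; adjusted p = 0.00235, limma). Mrps6 had the largest change of the members, and it shares 19.9% of its exon bases with Gm49711 and Slc5a3. It ran from 2289 to 4029 in HEM, with a median of 2830.4, against 4029, 6865, 5740.1 and 4585 in WT, so the highest HEM and the lowest WT mouse were nearly equal (log2 fold change -0.87 ± 0.16, adjusted p = 0.00311).

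Mrps14, a further member with a bacterial counterpart, had 2753 to 3583 in HEM, with a median of 3249.8, and 3823, 5092, 4645 and 4745 in WT, again without overlap (log2 fold change -0.52 ± 0.12, adjusted p = 0.00849). Mrps21, the member with the highest level per kb, had 2773 to 4278 in HEM, with a median of 3343, and 3758, 6278, 5189.7 and 5265 in WT. Its groups overlapped through the highest HEM and the lowest WT mouse (log2 fold change -0.59 ± 0.12, adjusted p = 0.00507). Mrps33, specific to mitochondria, had 1766 to 2411 in HEM, with a median of 1946, and 2528, 3382, 2718 and 2618 in WT, with no overlap (log2 fold change -0.48 ± 0.10, adjusted p = 0.00536). Mrps25, also specific to mitochondria, fell by 0.62 ± 0.12 on the log2 scale (adjusted p = 0.00316). It shares 69.8% of its exon bases with Nr2c2, a nuclear receptor gene, so its reads are less certain. Mrps28 fell by 0.41 ± 0.12 on the log2 scale (adjusted p = 0.0299), and Mrps34 fell by 0.33 ± 0.11 (adjusted p = 0.0456), with 77.8% of its exon bases shared with other genes.

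Small-subunit members that did not pass the test included Mrps27, a pentatricopeptide repeat protein, with a log2 fold change of -0.12 ± 0.12 (adjusted p = 0.632), and Mrps9, at 0.07 ± 0.06 (adjusted p = 0.578). Mrps9 had 2266 to 2815 in HEM, with a median of 2624, and 2480.5, 2566, 2406 and 2460.0 in WT, so the WT values lay inside the HEM range.

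In the large subunit, which forms peptide bonds, Mrpl13 had the smallest p. It had 2012 to 2713 normalised counts in HEM, with a median of 2348, against 3061, 4102, 3736 and 3219 in WT, with no overlap (log2 fold change -0.56 ± 0.10, adjusted p = 0.00237). Mrpl58 showed the largest change in this subunit. It is a former peptide release factor, known for peptidyl-tRNA hydrolase activity, that became a structural protein of the large subunit. Mrpl58 had 2959 to 4479 in HEM, with a median of 3141, against 4119.7, 6370.4, 5498 and 5732 in WT, where the highest HEM mouse exceeded the lowest WT mouse (log2 fold change -0.68 ± 0.12, adjusted p = 0.00237).

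Mrpl42, specific to mitochondria, had 2713 to 3769 in HEM, with a median of 3077, and 3735, 6533, 4980.4 and 4597 in WT (log2 fold change -0.63 ± 0.11, adjusted p = 0.00256). Mrpl28, one of the members with the highest level per kb, had 3169.8 to 4599 in HEM, with a median of 3644, and 4483, 6378, 5612 and 5799.7 in WT (log2 fold change -0.59 ± 0.11, adjusted p = 0.00265). Both overlapped through 1 HEM and 1 WT mouse. Mrpl14, which lies on the face that meets the small subunit, had 1177 to 1624 in HEM, with a median of 1390.3, and 1685, 2297, 2049 and 2208 in WT, with no overlap (log2 fold change -0.55 ± 0.10, adjusted p = 0.00311). Mrpl51, specific to mitochondria, fell by 0.57 ± 0.11 on the log2 scale (adjusted p = 0.00299). WT replicate 7 was the highest library, and WT replicate 6 the lowest of its group, for Mrpl13, Mrpl58, Mrpl42, Mrpl28, Mrpl14 and Mrpl51.

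Members with known special roles were not all alike. Mrpl12, the protein of the flexible stalk that contacts translation factors, fell by 0.49 ± 0.11 on the log2 scale (adjusted p = 0.00748). Mrpl10 and Mrpl11, at the base of that stalk, fell by 0.27 ± 0.08 and 0.40 ± 0.09 (adjusted p = 0.0261 and 0.00578). Mrpl45, which anchors the ribosome to the inner membrane near the exit of the new protein, had 2032 to 2342 in HEM, with a median of 2131, and 2443, 2919, 2387 and 2611 in WT, with no overlap (log2 fold change -0.26 ± 0.07, adjusted p = 0.0210). Mrpl44, which carries a ribonuclease III fold, had a log2 fold change of -0.17 ± 0.08 that did not pass the test (adjusted p = 0.187). Of the highest and lowest members by level, Mrpl34 was at -0.36 ± 0.12 (adjusted p = 0.0662), Mrpl47 at -0.13 ± 0.10 (adjusted p = 0.493) and Mrps30 at 0.02 ± 0.10 (adjusted p = 0.946).

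The 3 Mrps18 genes encode related proteins that occupy different places, Mrps18a in the large subunit and Mrps18b and Mrps18c in the small one. Mrps18a had 2399 to 2912 in HEM, with a median of 2515, and 2676, 3988, 3276 and 3179.9 in WT, and it fell by 0.34 ± 0.09 on the log2 scale (adjusted p = 0.0189). Mrps18b had 446 to 594 in HEM, with a median of 553, and 535, 661, 682 and 617 in WT, which did not pass (log2 fold change -0.19 ± 0.12, adjusted p = 0.354). Mrps18c, the one with a bacterial counterpart, had 474 to 707 in HEM, with a median of 569, and 598, 619.7, 481 and 444 in WT (log2 fold change 0.10 ± 0.13, adjusted p = 0.714). No difference between the 3 paralogs was tested. Mrps36, the member outside the ribosome, had 941 to 1363 in HEM, with a median of 1119, and 1433, 1959.8, 1677 and 1480.3 in WT, with no overlap (log2 fold change -0.53 ± 0.12, adjusted p = 0.00628).

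Of the 5 members with positive fold changes, 0 passed the test. Mrpl33, the counterpart of a small bacterial large-subunit protein, came nearest. It had 1460.1 to 1764 in HEM, with a median of 1606, and 1475, 1498, 1418 and 1296 in WT (log2 fold change 0.18 ± 0.08, adjusted p = 0.184). Over all members, 18 of 77 (23.4%) had every HEM value below every WT value, against 3.98% of all tested genes, and 0 members had the reverse, against 2.69%.

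**Figure D2:**
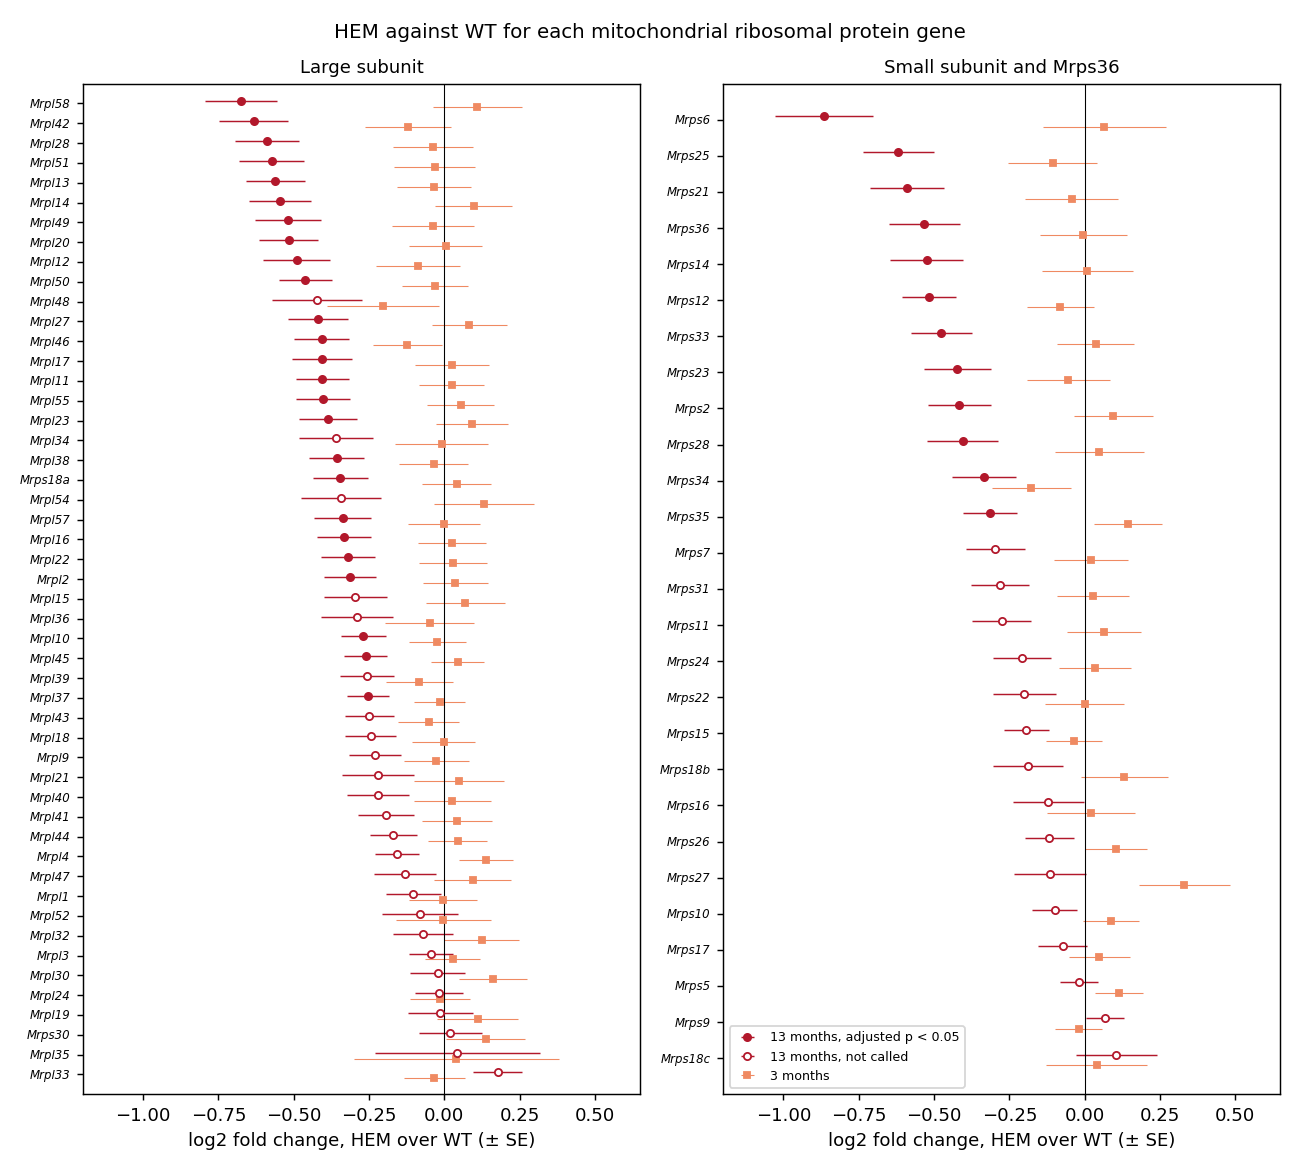
Log2 fold change of HEM over WT (± SE) for each large-subunit gene (left) and each small-subunit gene and Mrps36 (right), ordered by the value at 13 months. Red circles show 13 months, filled where the adjusted p was under 0.05, and orange squares show 3 months; all 37 filled circles lie left of 0, and the squares scatter around 0.

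**Figure D3:**
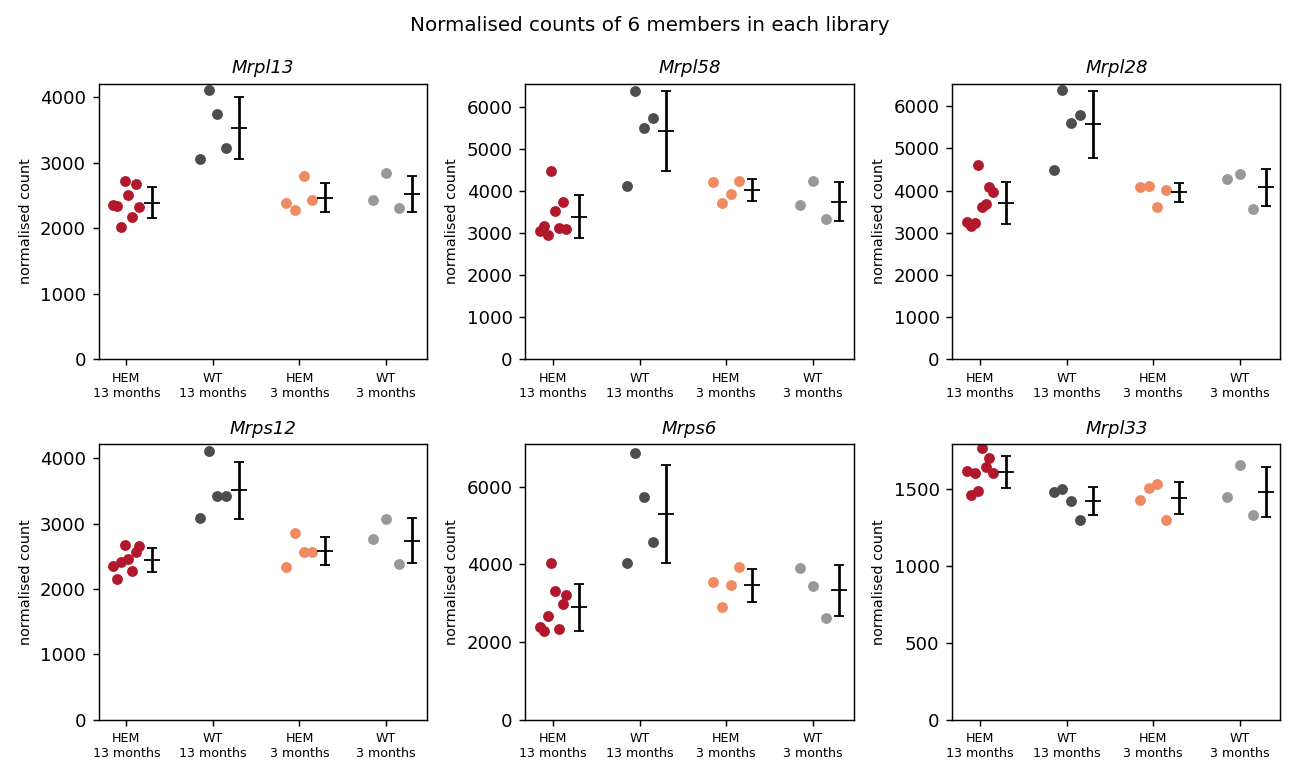
Normalised counts of 6 members in each library (points), with the mean and SD of each group (bars), on axes from 0. Mrpl13, Mrpl58, Mrpl28, Mrps12 and Mrps6 are lower in most HEM than WT mice at 13 months, while the 4 groups of Mrpl33 overlap.

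The count of 37 rested in part on single WT mice. It was 20 without WT replicate 7 at 13 months, the library with the highest member level, where 4.02% of all genes fell. It was 27 without WT replicate 8 (4.56% of all genes) and 29 without WT replicate 9 (4.55%), and 44 without WT replicate 6 (7.68%). Of the 37 members, 20 passed in all 19 fits that each left out 1 library, among them Mrps12, Mrps6, Mrpl13, Mrpl58 and Mrpl12. DESeq2 on the recovered reads called 47 members lower, where it called 9.34% of all genes lower, and edgeR with TMM factors called 39 (7.27% of all genes). All 37 were among the calls of each.

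Other measures moved with the same contrast. All 13 immediate early genes, which respond within minutes to stimulation and to tissue handling, rose in HEM at 13 months, with normalised counts that gave sums from 496662 to 1472244 in HEM and from 98879 to 414742 in WT. Neutrophil markers rose too (8 of 8), with sums from 61966 to 535847 in HEM and from 36283 to 99172 in WT, and of the 7 erythroid markers 2 rose. Of the 5 markers of cycling cells 4 rose, with a median log2 fold change of 1.88 and sums from 5585 to 30694 in HEM and from 2598 to 5042 in WT. Of the 4 T cell markers 2 rose (median 1.28), and of the 5 astrocyte markers 1, Aldh1l1, fell. Choroid plexus markers fell (5 of 5), with sums from 1352324 to 2659689 in HEM and from 3393367 to 4079829 in WT. Of the 8 microglial markers 0 passed the test, but all 8 had negative log2 fold changes, with a median of -0.24, a change of -15.2%, beside the members' -0.29. Their sums ran from 372191 to 1039049 in HEM and from 560155 to 939748 in WT. With the level of the immediate early genes as a covariate, the members' median log2 fold change was -0.19, limma called 0 and 16 were lower at an unadjusted p under 0.05. With neutrophil and erythroid markers as a covariate the median was -0.29, with 0 called and 30 lower at an unadjusted p under 0.05. Under each of these covariates 0 of all 23973 genes were called. Without a covariate 55 members were lower at that unadjusted threshold, against 13.3% of all genes. Under the covariates that share was not taken, so the counts of 16 and 30 stand without it. The part of microglia, choroid plexus, cycling cells and T cells, and of depth, which was lower in HEM, was not tested.

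The members also differ from most genes in exon length, with a median of 2.06 kb for the 37 called and 2.66 kb for the other 40, against 4.14 kb for tested protein-coding genes. By length class, the median log2 fold changes at 13 months under 1.5 kb were -0.36 for the 19 members and -0.06 for 1524 genes. From 1.5 to 3 kb they were -0.27 for 27 members and -0.05 for 4045 genes, and from 3 to 6 kb -0.25 for 19 members and -0.01 for 6532 genes. Over 6 kb they were -0.20 for 12 members and 0.03 for 4903 genes. From the shortest class up, 14.9%, 12.6%, 9.89% and 6.42% of these protein-coding genes were called lower. In the same order, 11, 13, 9 and 4 members were called lower. With the trend of each library on length and GC content removed, 36 members were lower, as were 6.69% of all genes.

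At 3 months, HEM and WT mice did not differ in any member by the test. Of 77 members 0 were called, as were 0.0% of all tested genes, and at an unadjusted p under 0.05 there were 0 lower members and 1 higher member, against 2.02% and 1.84% of all genes. DESeq2 called 0 members, with 0.00417% of all genes lower and 0.0209% higher, and edgeR called 0 members and 0.0% of all genes. The members' median log2 fold change was 0.03, that of the large subunit 0.02 and that of the small subunit 0.03. The 1 member was Mrps27, with 1080.3, 1182, 1092 and 954 in HEM and 826, 1005 and 749 in WT, where 1 HEM and 1 WT mouse overlapped (log2 fold change 0.33 ± 0.15, unadjusted p = 0.0403, adjusted p = 1, limma). The next by p in each direction were Mrpl4 at 0.14 ± 0.09, Mrps34 at -0.18 ± 0.13 and Mrpl48 at -0.20 ± 0.19. The genes with the clearest differences at 13 months were close between genotypes at 3 months. Mrps12 had 2339, 2851, 2564 and 2572 in HEM and 2769, 3068 and 2378 in WT, and Mrpl58 had 4224, 3707, 3931 and 4238 in HEM and 3667, 4239.9 and 3324 in WT. Cell markers differed at this age with 0 called. All 6 neuron markers had positive log2 fold changes (median 1.16), and all 8 neutrophil and 7 erythroid markers negative ones (-0.65 and -0.38). The part of these cells at 3 months was not tested.

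With age, 0 members passed the test in either genotype. Most fold changes were positive in WT mice, and in HEM mice their median lay near 0. The 2 age comparisons share no library with each other, but each shares its 13-month or 3-month libraries with a genotype comparison. In WT mice, 13 against 3 months gave a median log2 fold change of 0.23, with 74 of 77 members positive, against 11704 of all 23973 genes. At an unadjusted p under 0.05 there were 32 higher members, against 9.18% of all genes. Of all tested genes 0.463% rose and 0.246% fell. The smallest adjusted p was 0.0535, for Mrpl50, a protein specific to mitochondria, with 2997, 3325, 3076 and 2532 at 13 months and 2139.5, 2407 and 1951 at 3 months (log2 fold change 0.46). All 4 older WT values lay above the 3 younger ones, and the same held for 20 of 77 members (26%), against 8.83% of all genes. Mrpl14 was next, at 0.52 ± 0.13 (adjusted p = 0.0599). DESeq2 called 20 members higher in older WT mice, where it called 3.47% of all genes, and edgeR called 0, where it called 0.267% of all genes. Without WT replicate 6 at 13 months limma called 13 (1.67% of all genes), and without HEM replicate 7 at 13 months, which enters only the shared spread, it called 5 (1.45% of all genes). Immediate early genes moved the other way in this comparison, where 7 of 13 fell in older WT mice. Of the 5 choroid plexus markers 0 were called, but all 5 log2 fold changes were positive, with a median of 0.84 and sums from 3393367 to 4079829 at 13 months and from 1990083 to 3517183 at 3 months. The 8 neutrophil, 7 erythroid and 5 endothelial markers were all negative with 0 called, at medians of -1.15, -1.17 and -1.15. The part of these cells in the age comparison was not tested.

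In HEM mice, 13 against 3 months gave a median log2 fold change of -0.06, and 62 of 77 members (80.5%) were negative, against 50.6% of all genes. There were 0 calls, against 0.684% of all genes lower and 0.934% higher, and 4 members, all lower at 13 months, had an unadjusted p under 0.05, against 7.68% of all genes. DESeq2 called 0 members, where 2.2% of all genes were lower and 3.26% higher, and edgeR called 0, with 0.713% lower and 0.838% higher. Mrpl2, a core protein near the peptidyl transferase centre, had 2599 to 3256 at 13 months, with a median of 2849, and 3439.6, 3470.5, 3503 and 2988 at 3 months (log2 fold change -0.23 ± 0.09, adjusted p = 0.177). Mrpl4 was at -0.17 ± 0.07 (adjusted p = 0.243). In the other direction Mrpl33 was at 0.16 ± 0.08 and Mrpl18, a 5S rRNA-binding protein in bacteria, was at 0.15 ± 0.08 (adjusted p = 0.335 and 0.382). All 8 neutrophil markers were positive (median 1.64), and all 6 neuron and 8 microglial markers were negative (-0.96 and -0.17), with 0 called. Of the 7 erythroid and the 5 astrocyte markers 4 each were positive, with 1 called in each list. The part of these cells in this comparison was not tested.

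The difference between the genotype effects at 13 and at 3 months was tested in the same model, and 0 members passed, as did 0.0% of all genes. Its median over the members was -0.32, with -0.30 in the large and -0.32 in the small subunit. Of the 77 values 73 were negative, against 49.6% over all genes. At an unadjusted p under 0.05 there were 38 lower members (49.4%), against 8.04% of all genes, and 0 higher, against 6.77%. Mrpl58 had the smallest p, with a difference of -0.78 ± 0.19 (unadjusted p = 0.000559, adjusted p = 0.0931, limma), followed by Mrpl14 at -0.64 ± 0.16 (adjusted p = 0.102). On the positive side Mrpl33 and Mrps9 had the smallest p, and neither passed. By edgeR 0 members and 0.0% of all genes passed. DESeq2 called 8 members lower, where it called 2.35% of all genes lower. By limma, the genotype effect was thus not shown to differ between the ages for any single member.

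The other genes of mitochondrial translation were looked at as lists, beside the 7.3% of all tested genes that fell and the 4.87% that rose in HEM at 13 months. Of the 5 mitochondrial ribosome proteins with other symbols, 1 fell and 0 rose, with a median log2 fold change of -0.06. It was Aurkaip1, a small-subunit protein also known as a binding partner of Aurora A kinase, with a mean of 4795 ± 408 normalised counts in HEM, against 6345 ± 695 in WT (SD, n = 8 and 4; log2 fold change -0.40 ± 0.08, adjusted p = 0.00475). Of 13 translation factors 2 fell (15.4%) and 0 rose, with a median of -0.22. Tufm, the elongation factor that brings tRNA to the ribosome, had 4205 ± 348 in HEM and 5662 ± 739 in WT (-0.42 ± 0.08, adjusted p = 0.00391). Gfm1, the elongation factor of translocation, had 2724 ± 191 in HEM and 3233 ± 314 in WT (-0.24 ± 0.07, adjusted p = 0.0311).

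Of 17 mitochondrial aminoacyl-tRNA synthetases, which load tRNAs, 1 fell (5.88%, below the share of all genes) and 0 rose, with a median of -0.04. It was Fars2, for phenylalanine, with 2599.5 ± 536 in HEM and 4431 ± 699.9 in WT (log2 fold change -0.78 ± 0.14, adjusted p = 0.00262). Of 25 assembly factors 1 fell (4.0%, also below it) and 0 rose, with a median of -0.12, and it was Mrm2, an RNA methyltransferase of the large subunit (-0.38 ± 0.12, adjusted p = 0.0489). Of 12 genes of mitochondrial transcription, DNA replication and RNA stability 1 fell and 1 rose (8.33% each), with a median of -0.06. Tfb2m, a transcription initiation factor, fell (-0.31 ± 0.09, adjusted p = 0.0397), and Polg2, the accessory subunit of the mitochondrial DNA polymerase, rose (0.54 ± 0.16, adjusted p = 0.0316).

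The ribosomal RNAs themselves varied widely between libraries. The small-subunit RNA mt-Rnr1 ran from 70125 to 335786 in HEM at 13 months, with a median of 119463, against 149467 to 310769 in WT, and the groups overlapped (log2 fold change -0.39 ± 0.39, adjusted p = 0.607). The large-subunit RNA mt-Rnr2 gave -0.28 ± 0.33 (adjusted p = 0.682). With age 0 of the 2 passed the test, but both were positive, at 1.28 and 1.48 in WT mice and at 0.75 and 0.76 in HEM mice. In WT mice every older value of both lay above every younger one, which held for 8.83% of all genes.

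**Figure D4:**
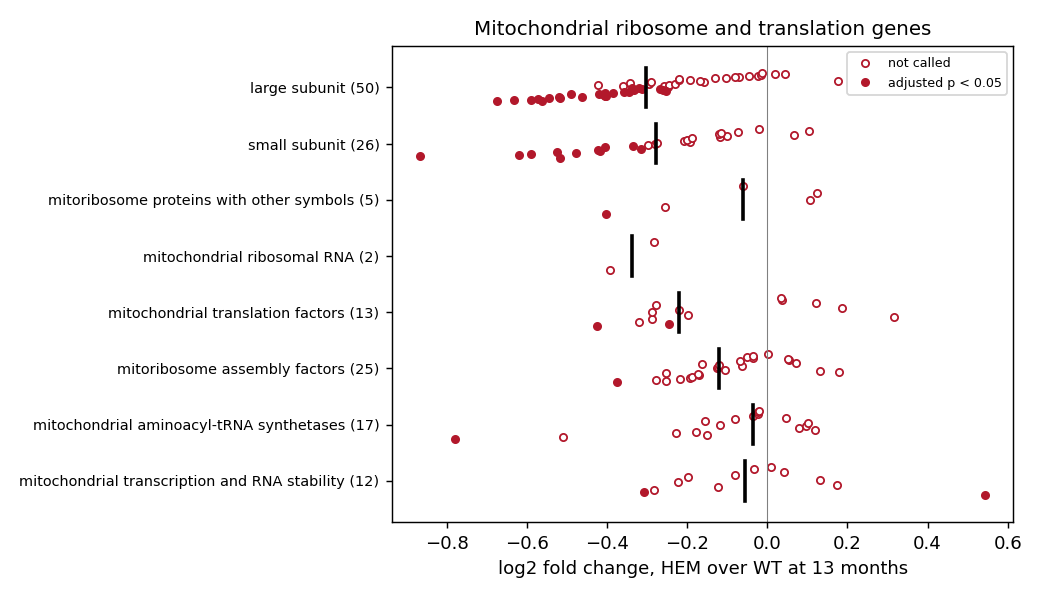
Log2 fold change of HEM over WT at 13 months for the genes of each list (points, filled where the adjusted p was under 0.05), with the list's median (black bar) and the number of genes in brackets. The large-subunit and small-subunit genes hold most of the filled points. The medians of the mitoribosome proteins with other symbols, the synthetases and the transcription and RNA stability genes lie near 0.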

How the data were processed

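Gene-level RNA-seq values of 19 mice were used, from brain homogenate enriched for microglia. The authors used Trimmomatic, HISAT2, featureCounts, DESeq2 and build mm10, per the submitters' processing notes. Versions, strand setting and annotation are not given in the sources used here. In the deposited files each value is a signal, a gene count divided by 1 size factor per library. All values (100%) were whole multiples of their library's step at a tolerance of 0.01, so reads and depth could be recovered. The labels tie each file to a sample, and each column of the series-wide table equalled 1 library. Symbols and exon lengths came from GENCODE M21, which named 99.3% of the IDs, and promoters from RefSeq.

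The main test was limma-trend with robust variances (R 4.3.3, limma 3.58.1) on log2(value + 1), with 4 groups in 1 model and no covariate, for the 23973 genes that reached 10 or more in 3 or more libraries. Two-sided p-values were adjusted by Benjamini-Hochberg and called under 0.05. A fold change is on the log2(value + 1) scale, which understates low genes. P-values measure the spread between these animals' libraries. Alternatives were edgeR 4.0.16 (TMM or RLE factors) and DESeq2 1.42.0 on recovered reads, TMM scaling, pseudocounts of 0.5 and 10, no low filter or one at 50, the compared groups alone, the animal number as a block, 2 covariates, each library left out, and 3 libraries left out that stand apart on principal components in an earlier description (HEM replicates 1 and 11 at 13 months, HEM replicate 3 at 3 months). Removal of length and GC trends was added after seeing the data. The steps were tested on simulated data.

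Members, lists, motifs and rules were chosen with earlier results of these data known, so lists were described by counts and medians, with no test. Named members were, in the genotype comparison at 13 months and the age comparison in WT, the 6 called members of each subunit with the smallest p; in the other comparisons up to 4 called, or else 2 in each direction by smallest p; the 3 highest and 3 lowest by level; and 12 for their role. Mrpl10, Mrpl11, Mrpl46, Mrps11, Mrpl43 and Mrpl50 were named in addition after their values were seen.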

Additional observations from a re-analysis of the deposited data

Results flagged for a closer look

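Among 99 groups of 4 to 10 libraries, 93 for the 31 members named by rule and 6 for the mean levels of the subunits, 8 had a library apart from the others by Dixon's criterion, whose chance rate is about 1 in 20 groups. The ratio given is the gap to the nearest library over the range of the group. In HEM at 3 months the lowest library stood apart for Mrpl28 (replicate 4, ratio 0.833), Mrpl51 (replicate 3, 0.902), Mrpl14 (replicate 1, 0.880), Mrps25 (replicate 3, 0.838) and Mrpl2 (replicate 7, 0.884). In HEM at 13 months the lowest library stood apart for Mrps9 (replicate 4, 0.531) and Mrps18b (replicate 1, 0.726), and the highest for Mrps18a (replicate 7, 0.581). Only Mrpl51 and Mrps25 share a library among these.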

How the results depend on the processing

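For HEM against WT at 13 months, the count of lower members (37) was 37 with TMM scaling, where 1723 of all 23973 genes were lower. It was 37 with pseudocounts of 0.5 and 10 (1747 and 1750 genes) and 40 by edgeR with RLE factors (1757 genes). It was 41 with a filter at 50 (1924 of 18431 genes) and 32 with the 2 groups alone (1362 of 23973). With no low filter it was 27 (1354 of 41090 genes), and without the 3 libraries that stand apart 30 (1475 of 23973). It ranged from 20 to 44 when 1 library was left out. With either covariate, immediate early genes or neutrophil and erythroid markers, it was 0, and the large-subunit median was -0.19 with the immediate early covariate. The same animal numbers occur in several groups, and correlations of same-numbered libraries ran from -0.07 to 0.17. Other pairs of libraries were not compared, so whether the numbers pair animals was not settled. With the replicate block 0 members and 0 genes in all were called, 43 members were lower at an unadjusted p under 0.05, and the large-subunit median was -0.41. The share of all genes at that unadjusted threshold was not taken. At 13 months HEM and WT share only the numbers 7 and 8, so few libraries inform this fit and its 0 calls say little. For 13 against 3 months in WT, the count of higher members (0) was 20 by DESeq2 (833 of all 23973 genes) and 3 with a filter at 50 (198 of 18431). It was 2 with length and GC trends removed (206 of 23973 genes) and 1 without HEM replicate 3 at 3 months (116 genes). Over single leave-outs it ran from 0 to 13, the 13 without WT replicate 6 at 13 months (401 genes). The small-subunit median ranged from 0.14 to 0.33 in those fits. For the difference of the genotype effects the count of lower members (0) was 8 by DESeq2 (564 of all 23973 genes) and 0 to 3 over single leave-outs. In those leave-outs at most 246 of all genes were lower. The log2 fold change of Mrps30 at 13 months (0.02) was -0.0845 with the replicate block, -0.0265 with the immediate early covariate, -0.00654 without the 3 libraries apart, -0.0373 with length and GC trends removed, and -0.0373 to 0.0591 over single leave-outs. With length and GC trends removed, Mrps18c at 13 months was -0.00953 and Mrpl4 between ages in HEM was 0.0188. The cause of these changes was not tested. Depth ran from 63.3 to 124.5 M reads per library, and its part in these results was not tested.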
